A study of Mus musculus with 2 samples.

Results

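Long 3' terminal exons, of 3000 bases or more, were compared with the other exons of the same transcripts in RNA of CD69+ DP thymocytes. These are the T cell precursors of the thymus that co-express CD4 and CD8 and have gained the activation marker CD69. For each gene on 1 locus the transcript with the highest level summed over both libraries was taken, provided that it had 2 or more exons and reached a TPM (transcript abundance scaled to library total) of 5 in at least 1 library. Its last exon was kept when it was 3000 bases or longer. Of 9378 terminal exons chosen in this way at any length, 1337 were 3000 bases or longer and 8041 were shorter. The members were thus picked by annotated length and by the transcript's level in the same libraries, and not by a difference between them. Of the 1337, 1311 belong to protein-coding genes and 18 to long non-coding RNA genes, and they lie on all autosomes and the X chromosome.

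The study holds 2 RNA-seq libraries, 1 per genotype, from C57BL/6 mice aged 6 weeks. The library labelled WT comes from NSRP1f/f mice, which carry floxed Nsrp1 alleles and no Cre. The library labelled KO comes from NSRP1f/fCD4Cre mice, in which Cre is driven by Cd4 regulatory sequences, so that deletion starts during the DP stage and is limited to cells that have passed through it. The gene's product, NSrp70, is a splicing-related protein of nuclear speckles, and the design asks which genes differ when it is lacking. The number of mice per library is not stated in the labels.

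The terminal exon of a messenger RNA usually holds the end of the coding sequence and the 3' untranslated region. It ends where the cleavage and polyadenylation machinery cuts the transcript, most often a short distance after a hexamer, AATAAA or its variant ATTAAA, that the CPSF complex binds. Many genes have several such sites, and the choice between them sets how much 3' untranslated region an RNA carries, with its sites for microRNAs and RNA-binding proteins. In T cells this choice is known to shift with activation and proliferation.

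The ends of the long terminal exons whose depth differed most between the libraries are shown first, since they are where the hexamer lies. They are the last 30 bases of each exon, 5' to 3' on the transcript's strand, with the hexamer in capitals, read from GENCODE M21 transcripts of GRCm38 at the coordinates of the files (mm10). The first 3 belong to exons that were lower, and the next 4 to exons that were higher, in the library labelled KO.
Eif4g2, chr7:111067985-111068014, minus strand: ccataagccaaAATAAActcttgaacattg
Ttbk2, chr2:120732817-120732846, minus strand: ctagtAATAAAacattcagtccgcatgcaa
Azin1, chr15:38487430-38487459, minus strand: aacctgtccaggaATTAAAagctcttggct
Slc30a4, chr2:122681233-122681262, minus strand: ATTAAAaacttaaaatgtacagtcccctaa
Gnb4, chr3:32580332-32580361, minus strand: actgtaatcAATAAAgtgcttttcaccatg
Mtif3, chr5:146951573-146951602, minus strand: aactaaacAATAAAgtctctctggatctga
Pigk, chr3:152788984-152789013, plus strand: tgggaaactcagaatcAATAAAaactttaa
These 7 exons hold a hexamer that starts 14 to 30 bases before the exon's end, in both directions of difference. The ends of 3 further exons with large differences, in Znrf1, Trub2 and Aebp2, hold neither hexamer in their last 30 bases.

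Of the 1337 long terminal exons, 945 could be read in full from GENCODE M21, as could 6385 of the 8041 shorter ones. On the transcript's strand, AATAAA stood in the last 50 bases of 67.3% of the long and 62.9% of the shorter exons, and AATAAA or ATTAAA in 82.8% and 77.9%. Before the last 50 bases, at least 1 further AATAAA was present in 788 of the 945 long exons (83.4%) and in 36.3% of the shorter ones. Per kilobase the counts were close, at 0.615 and 0.579. The long exons were richer in A and T, with a median of 56.3% against 53.0%. Annotated coding sequence made up a median of 5.45% of a long exon and 15.9% of a shorter one, and 85 of the long exons were coding over more than 50 percent of their length. These shares describe the letters of these windows only.

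Depth on annotated exons was 4199 megabases in the library labelled WT and 5076 megabases in the library labelled KO. The 9 DP thymocyte markers summed to 5446 and 5686 TPM, and ranged from 13.6 TPM for Ptcra to 1679 TPM for Cd8b1. The 5 markers of dendritic cells and macrophages summed to 137 and 97.3 TPM, almost all from H2-Ab1 and Lyz2, and the 4 B cell markers to 21.9 and 26.4 TPM. The 4 fibroblast and endothelium markers summed to 120 and 104 TPM, of which Pecam1 gave 120 and 104 TPM. The others were near 0, with Cdh5 at 0.17 and 0.36 TPM and Col1a1 at 0.50 and 0.39 TPM, so this sum is that of 1 gene. The 5 thymic epithelium markers summed to 7.08 and 8.54 TPM, mostly from Epcam (6.87 and 8.35 TPM), and the 3 erythroid markers to 0.846 and 1.17 TPM. Foxn1, Krt5, Krt8, Col3a1 and Hba-a1 were listed at 0 in both libraries. The part of these other cells in the differences below was not tested. In such bulk RNA, fewer cells of a type and less RNA per cell cannot be told apart. Nsrp1 stood at 29.7 TPM in the library labelled WT and 29.6 TPM in the library labelled KO, so its RNA level gave no check of the KO label. With 1 library per genotype no test could be made, genotype and library cannot be told apart, and 95% intervals cover counting error only.

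Exon levels are given in TPM-equivalents, the authors' exon coverage multiplied by the TPM per unit of coverage of that library, which puts them per length and on the scale of TPM. A member counted as measured with at least 100 estimated read pairs over both libraries in the terminal exon and as many in the other exons. This held for 1160 of the 1337 members. Of the other 177, 174 had too few read pairs in the other exons, which had a median summed length of 310 bases, and 3 too few in the terminal exon. The relative difference is log2(KO/WT) of the terminal exon minus log2(KO/WT) of the transcript's other exons, with 0.1 TPM-equivalents added to each level, and a size of 1 or more was counted as a call.

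Long terminal exons stood at similar levels in both libraries, while the other exons of their transcripts were lower in the library labelled KO. Over the 1160 measured members the median log2 difference was -0.11 in the terminal exon and -0.40 in the other exons, against 0.04 and -0.14 over all 8023 measured terminal exons. When the libraries were scaled instead to the median ratio of all other exons (-0.14), the first of these medians changed sign, to 0.02, and the second was -0.26. The median relative difference, which no such scaling affects, was 0.29, with an interquartile range of 0.14 to 0.43, against 0.19 over all measured exons and 0.17 over the shorter ones. It was above 0 in 1019 of 1160 members (87.8%), beside a background of 82.6% of all measured terminal exons. Within the library labelled WT the terminal exon lay below the other exons, with a median log2 ratio of -0.14, and within the library labelled KO above them, at 0.15. Over all measured exons these ratios were -0.11 and 0.09.

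The relative difference was larger in longer terminal exons. Its median was 0.08 under 500 bases, 0.16 for 500 to under 1000, 0.20 for 1000 to under 2000 and 0.24 for 2000 to under 3000 bases. Among the members it was 0.26 for 3000 to under 4000 bases (n = 611), 0.31 for 4000 to under 6000 (n = 408) and 0.37 for 6000 or more (n = 141). Both parts of the transcript were lower with length, the other exons more so. The median of the terminal exon went from 0.13 in the shortest class to -0.23 in the longest, and that of the other exons from 0.05 to -0.57. Neighbouring classes overlapped, with interquartile ranges of 0.11 to 0.38 just below 3000 bases and 0.13 to 0.39 just above. Just inside the limit, Brd3, which encodes a BET bromodomain protein, had an exon of 3000 bases at 39.2 and 39.5 TPM-equivalents in the libraries labelled WT and KO, with 66.1 and 49.0 in the other exons. Ero1a (3002 bases) and Erlin2 (3003 bases) had relative differences of -0.02 and -0.01. Just outside were Tollip (2997 bases, 0.25), Ankrd44 (2996 bases, 0.56) and Pum2 (2995 bases, 0.44).

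**Figure D1:**
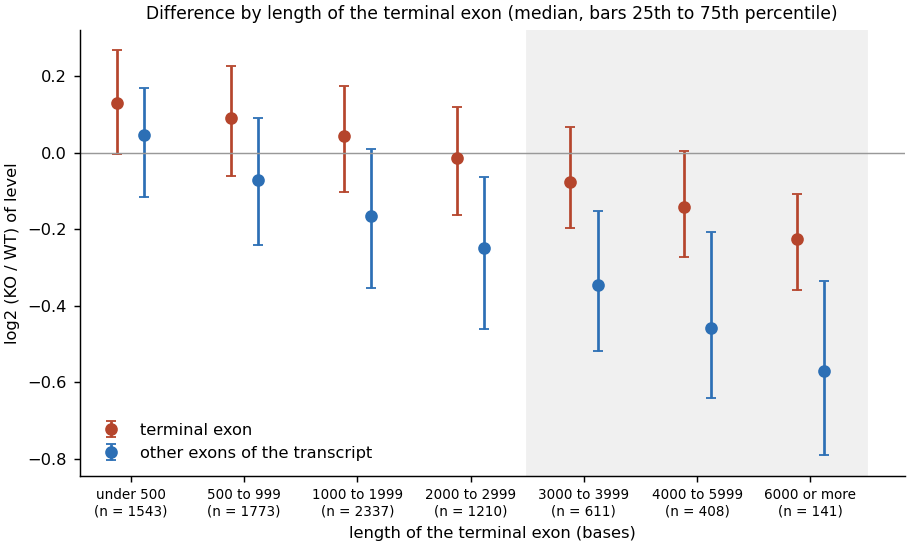
Median log2(KO/WT) of the terminal exon (red) and of the other exons of the same transcript (blue) by length of the terminal exon in bases; bars run from the 25th to the 75th percentile over exons, and the grey area marks 3000 bases or more. The medians run from 0.13 to -0.23 in the terminal exon and from 0.05 to -0.57 in the other exons, and the gap between them widens from left to right.

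The summed length of the other exons went with the relative difference as well. Where it was under 1000 bases, the median was 0.19 in the 338 members and 0.09 in the shorter terminal exons. With 3000 bases or more of other exons the medians were 0.44 in the 188 members and 0.36 in the shorter ones. The members thus had the higher median within each class of other-exon length, the 2 classes between giving 0.26 against 0.17 and 0.33 against 0.25. Over the 823 members that were measured and read in full, Spearman's rank correlation with the relative difference was 0.37 for the length of the other exons, 0.18 for that of the terminal exon and -0.01 for its A and T content. These exons share 2 libraries, so the values are descriptions. The median was similar at all levels, with 0.27 in members under 10 TPM (n = 165) and 0.29 in those of 100 TPM or more (n = 87). The 12 measured members of long non-coding RNA genes had a median of 0.24, with a wide interquartile range of -0.15 to 0.51. Of these, 8 (66.7%) were above 0, beside 87.8% of all measured members.

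Position along the transcript was looked at exon by exon in genes with 1 annotated transcript, where no reads had to be divided between transcripts. The depth of single exons was lower in the library labelled KO the farther they lay from the 3' end, in both sets of genes. In transcripts with a long terminal exon, the other exons had a median log2 difference of -0.25 at 3000 to 4000 bases from the 3' end (1103 exons of 367 genes), of -0.47 at 5000 to 6000 bases and of -0.74 beyond 8000 bases (938 exons of 114 genes). At the same distances the other exons of transcripts with a shorter terminal exon stood at -0.36, -0.60 and -0.96. Long terminal exons whose midpoint lay 1500 to 2000 bases from the 3' end had a median of -0.08 (n = 422), against -0.13 for other exons at that distance in the comparison transcripts. At 3000 to 4000 bases the values were -0.21 (n = 70) and -0.36. At equal distance, exons of transcripts with a long terminal exon thus had the smaller difference in each bin shared by both sets. A further 51 internal or first exons of 3000 bases or more, at a median distance of 4804 bases, had a median of -0.58, and 46 of them were below 0. The same decline was thus present in transcripts of both kinds, and its cause was not tested.

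**Figure D2:**
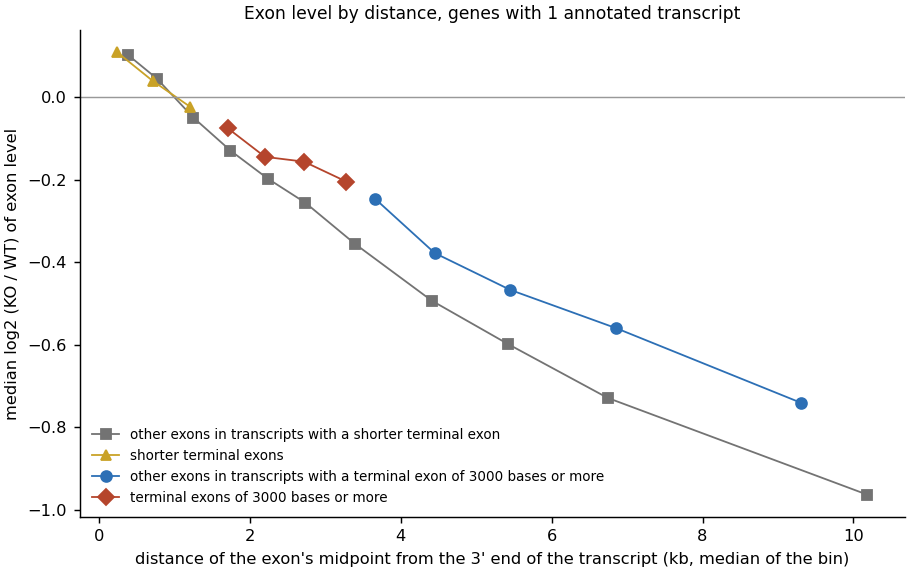
Median log2(KO/WT) of single exons against the distance of the exon's midpoint from the 3' end of its transcript (kb), in genes with 1 annotated transcript; each point is a distance bin, and colours separate long terminal exons (red), the other exons of their transcripts (blue), shorter terminal exons (yellow) and the other exons of those transcripts (grey). All 4 lines fall with distance, and the red and blue points lie above the grey ones, for example at -0.74 against -0.96 beyond 8000 bases.

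Few members departed from this shared pattern. A relative difference of 1 or more was counted in 18 of 1160 measured members (1.55%; background 0.86% of all measured terminal exons) and one of -1 or less in 9 (0.776%; background 0.598%). The terminal exon itself was at least 2-fold higher in the library labelled KO in 16 members (background 1.57%) and at least 2-fold lower in 25 (background 1.25%). The other exons were at least 2-fold higher in 6 (background 0.598%) and at least 2-fold lower in 60 (5.17%; background 1.57%). Of the 18 relatively higher members 14, and of the 9 relatively lower members all, had several annotated transcripts, among which StringTie divides the reads of shared exons. With the coverage of all transcripts of the gene added up at each base, 11 of the 18 and 7 of the 9 kept their call. No further member was called in this way. The calls were thus 11 and 7 of the 1160 measured members, beside a background of 0.648% and 0.548% of all measured terminal exons. Among the 655 measured members with 1 annotated transcript, 4 were relatively higher (background 0.155% of such genes) and none relatively lower (background 0%), by this rule of size and with no test.

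**Figure D3:**
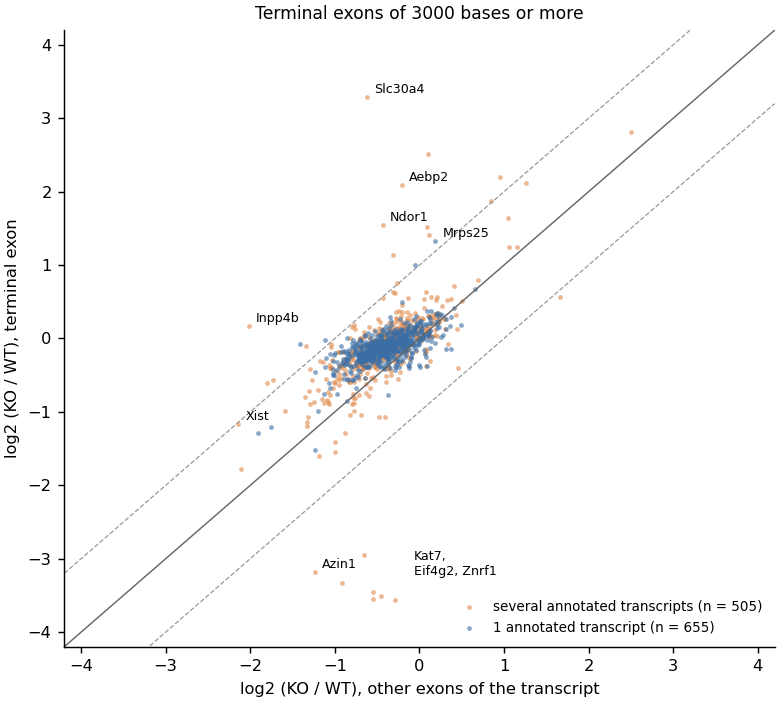
Each point is 1 of the measured members: log2(KO/WT) of the other exons on the horizontal axis and of the terminal exon on the vertical axis, for genes with several annotated transcripts (orange, n = 505) and with 1 (blue, n = 655); the solid line marks equal differences and the dashed lines a relative difference of 1 in size. Most points lie just above the solid line, 18 on or above the upper and 9 on or below the lower dashed line, and Iqsec1 and Tns1 lie outside the plotted range.

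The 7 relatively lower members that kept their call had a terminal exon far below its level in the library labelled WT, with a smaller difference in the other exons. Values in this and the next paragraph are sums over all transcripts of the gene. Kat7, which encodes the histone acetyltransferase HBO1, had a terminal exon of 4035 bases (chromosome 11, 95271853 to 95275887, minus strand) at 42.4 TPM-equivalents in the library labelled WT and 6.64 in the library labelled KO, and other exons at 81.3 and 71.9. In the transcript first chosen its relative difference was -3.29, with a counting interval of -3.70 to -3.01. All 3 annotated transcripts of Kat7 end with this exon. In Eif4g2, which encodes the translation factor DAP5, the terminal exon (4773 bases, chromosome 7, 111067985 to 111072757, minus strand) stood at 222 and 37.0 against 1111 and 1014 in the others. Its relative difference in the chosen transcript was -3.00 (-3.11 to -2.90), on 8156 and 894 estimated read pairs.

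Znrf1, a ubiquitin ligase gene, had the highest terminal level of these, with 395 and 54.5 TPM-equivalents in an exon of 4435 bases (chromosome 8, 111621596 to 111626030, plus strand) and 636 and 498 in the others. Of the 50-base words of this exon, 50.1% also occur in GENCODE transcripts of Ldhd, which the files list at 2.99 and 2.35 TPM, so part of its level is uncertain. Trub2, which encodes a mitochondrial pseudouridine synthase, stood at 24.5 and 5.38 in the terminal exon and at 55.8 and 49.3 outside it. Ttbk2, a kinase gene needed for the start of cilium growth, had the longest exon of this set (7378 bases), at 14.3 and 1.63 against 16.8 and 10.8. Azin1, which encodes an inhibitor of ornithine decarboxylase antizyme, stood at 69.1 and 16.4 against 142 and 120. The upper bounds of the counting intervals of these 6 described members, in the chosen transcripts, lay between -3.01 and -1.68. Apart from Znrf1, at most 0.593% of the words of these exons, as far as GENCODE holds them, occur in transcripts of other genes.

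**Figure D4:**
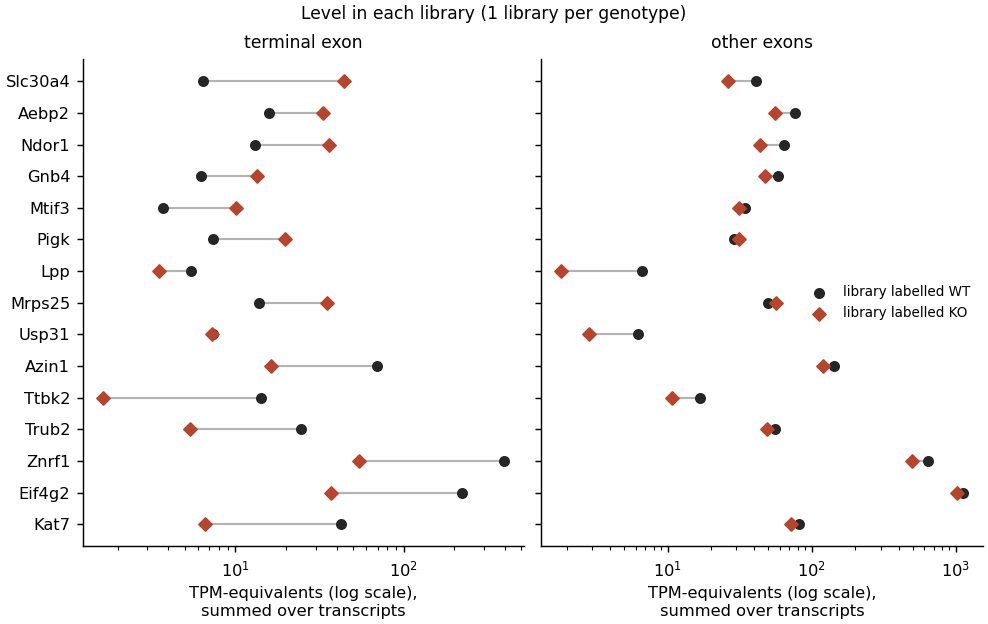
Levels in TPM-equivalents (log axis), summed over all transcripts of the gene, in the library labelled WT (black circles) and the library labelled KO (red diamonds), for 15 members that kept a relative difference of 1 or more in size; left, terminal exon; right, other exons. For the lower 6 genes the terminal exon is lower in the library labelled KO, as for Eif4g2 with 222 and 37.0, and the other exons differ less, as with 1111 and 1014.

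Among the 11 relatively higher members that kept their call, 9 have gene symbols that are not those of predicted genes or clones. Slc30a4, which encodes a zinc transporter, led with 6.45 and 44.4 TPM-equivalents in the terminal exon (4101 bases, chromosome 2, 122681233 to 122685333, minus strand) and 41.1 and 26 in the others. Its relative difference in the chosen transcript was 3.92 (3.60 to 4.32), and both annotated transcripts end with this exon. For Ndor1, which encodes a reductase of cytosolic iron-sulphur protein assembly, the levels were 13.1 and 36.2 there and 64.3 and 43.7 outside it, though 66.8% of this exon's words also occur in a transcript of an unnamed neighbour. Aebp2, which encodes a cofactor of the polycomb complex PRC2, had 15.8 and 33.3 against 76.2 and 55.5. Its 5 annotated transcripts have several different last exons, and the terminal exon's level is that of the bases they share with the chosen one.

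Gnb4, a G protein beta subunit gene, stood at 6.24 and 13.5 in the terminal exon and at 57.9 and 47.0 in the others. Pigk, which encodes a subunit of the GPI transamidase, stood at 7.35 and 19.6 against 28.9 and 31.2. Mtif3, a mitochondrial translation factor gene, stood at 3.74 and 10.05 against 34.1 and 31.4, and 31.4% of the words of its terminal exon also occur in transcripts of Gtf3a (47.8 and 62.8 TPM). In Slc30a4, Ndor1, Aebp2, Gnb4, Pigk and Mtif3 the terminal exon was higher in the library labelled KO. In the library labelled WT it lay 3-fold or more below the other exons. The other exons were lower in the library labelled KO in all of these but Pigk, most so in Slc30a4, Ndor1 and Aebp2. Lpp and Usp31 passed the rule through their other exons instead. Lpp, a focal adhesion gene with one of the longest terminal exons (13386 bases), stood at 5.42 and 3.52 in its terminal exon and at 6.65 and 1.83 in the others, on 46.2 read pairs in the latter in the library labelled KO. Usp31, a ubiquitin peptidase gene with 1 annotated transcript, had 7.4 and 7.30 against 6.24 and 2.83, with a relative difference of 1.09 (0.66 to 1.57).

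Mrps25, which encodes a protein of the small mitochondrial ribosome subunit, was the only named member with 1 annotated transcript whose terminal exon itself was at least 2-fold higher. That exon (5686 bases, chromosome 6, 92169523 to 92175208, minus strand) stood at 13.7 and 34.8 TPM-equivalents, and the other exons at 49.6 and 56.4. It overlaps an exon of another gene, and 79.0% of its words also occur in transcripts of Nr2c2 (76.8 and 41.1 TPM). The labels do not say if counting used the strand, so its reads cannot be told from those of the neighbour. Leaving out every member with several transcripts or such an overlap left 601 members, of which 2 were relatively higher, Usp31 and a long non-coding RNA gene, and none relatively lower.

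For 7 relatively higher and 2 relatively lower members the call was lost when transcripts were summed. In Rab11fip2, which encodes an effector of the GTPase Rab11, the chosen transcript's terminal exon stood at 1.12 and 6.87 TPM-equivalents, and the same bases over both transcripts at 7.77 and 7.90. Zzz3, which encodes a subunit of the ATAC acetyltransferase complex, had 6.38 and 29.6 in the chosen transcript and 34.8 and 32.8 in the sum. Iqsec1, an exchange factor gene for ARF6, had 15 in the library labelled WT and was listed at 0 in the library labelled KO, where the sum was 15.2 and 6.03. Inpp4b, a phosphoinositide phosphatase gene, had 26 and 29.3 in its terminal exon under either way of adding up, and its relative difference went from 2.19 to 0.75. In Rab11fip2 and Zzz3 the summed terminal bases thus stood close together in both libraries. The sum of Iqsec1, lower in the library labelled KO, is a mean over the 3358 bases of the chosen exon. The gene's second transcript ends with an exon that covers only 1428 of these bases, the ones nearest the 3' end. That shorter exon stood at 0.39 in the library labelled WT and 14.2 in the library labelled KO.

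The terminal exons with the highest levels included those of genes known from the DP thymocyte stage, and none of the leading 6 differed by 2-fold in either part. Ets1, a transcription factor gene of lymphocytes, stood at 1216 and 1122 TPM-equivalents in its terminal exon and at 1342 and 950.3 in the other exons. Satb1, which encodes a chromatin organiser of thymocytes, had 778 and 934 against 1875 and 1556. Ccr9, the gene of the chemokine receptor for CCL25, had 588 and 563 against 628 and 504. In these 3 the other exons were lower in the library labelled KO, and the terminal exon less so or, in Satb1, not at all. Cd28, the gene of the costimulatory receptor, had 497 and 501 against 429 and 345. Rag1, whose coding sequence lies within its terminal exon of 6558 bases, had 488 and 472.5 there and 234 and 171 in its other exon. Rmnd5a, a ubiquitin ligase subunit gene, had 445 and 460 against 160 and 121. Relative differences ran from 0.26 in Ccr9 to 0.53 in Satb1, each with a counting interval above 0, and in all 6 the other exons were lower in the library labelled KO.

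The 6 longest members were Aak1 (16024 bases), Fbxl17 (14460), Strbp (14239), Lpp, Tnrc6b (11998) and Zfp704 (11889). Strbp, which encodes an RNA-binding protein, stood at 12.3 and 10 TPM-equivalents in its terminal exon and at 109 and 93.8 in the others, the terminal exon being about as much lower as the rest, with a relative difference of -0.09 (-0.22 to 0.05). Aak1, a kinase gene of clathrin adaptor function, had 1.86 and 1.08 against 39.6 and 18.7. Fbxl17, an F-box protein gene, had 3.14 and 2.51 against 18.3 and 14.2. Tnrc6b, which encodes a GW182 protein that works with Argonaute, had 23.2 and 18.9 against 27.5 and 16.6. In Aak1, Fbxl17 and Strbp the depth of the annotated exon was a small fraction of that of the other exons in both libraries, whereas in Tnrc6b the parts stood close together. The terminal exon itself was lower in the library labelled KO in each of these 6.

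Genes were grouped by 9 lists, and their members' counts stand beside the medians over all measured members (0.29 relative, -0.11 terminal, -0.40 other exons). The counts above 0 are to be read against 87.8% of the measured members and 82.6% of all measured terminal exons. Chromatin regulators had the highest relative median, 0.47 over 22 members, with all 22 above 0 and none past 1 in size. Their other exons were lower than those of the average member, at a median of -0.68, and 5 of the 22 were at least 2-fold lower there, beside 5.17% of the measured members and a background of 1.57%. Their terminal exons had a median of -0.17. These transcripts are also long, with a median of 4849 bases of other exons against 1464 over all members. Kmt2a, which encodes the histone methyltransferase MLL1, stood at 89.4 and 76.5 TPM-equivalents in its terminal exon and at 51.6 and 25.6 in the other exons, a relative difference of 0.78 (0.70 to 0.88). Hdac4, a class IIa deacetylase gene, had 10.3 and 10.4 against 12 and 6.58 (0.87, 0.57 to 1.18). The lowest of the list were Phf6, at 75.8 and 85.6 against 104 and 103 (0.20), and Asxl1, at 72.8 and 66.5 against 55.8 and 43.4 (0.23).

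T lineage transcription factors had a median of 0.35 over 19 measured of 20 members, all above 0 and none past 1. Ikzf1, which encodes Ikaros, stood at 206 and 300.1 TPM-equivalents in the terminal exon of its chosen transcript and at 199 and 181 in the others (0.68, 0.58 to 0.78). In the sum over its 6 transcripts the terminal exon stood close together, at 671 and 682 against 573 and 449 (0.38). Ikzf2, the Helios gene, had 141 and 119 against 98.9 and 55.3 (0.59). Zbtb7a, at 30 and 24.9 against 27.7 and 22.2 (0.05), and Foxo1, a factor that acts downstream of PI3K, at 29.1 and 23.2 against 28.2 and 21.5 (0.06), had equal differences in both parts within counting error. T cell receptor signalling genes had a median of 0.34 over 14 members, with 12 above 0 and none past 1. Sos1, a Ras exchange factor gene, had 15.3 and 14.4 against 19.3 and 11.4 (0.68), and Nfatc2, the gene of a calcium-regulated factor, 11.1 and 8.39 against 5.41 and 2.54 (0.65). Pik3r1, the regulatory subunit gene of PI3K, at 4.87 and 3.38 against 70.4 and 53.5 (-0.12), was the lowest, with an interval that includes 0, and was at 0.04 in the sum over its transcripts.

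The list of cytokine and chemokine receptor genes, to which Notch1 was added, had a median of 0.37 over 7 members, all above 0 and none past 1. Notch1, the receptor that commits progenitors to the T lineage, stood at 67.5 and 60.1 in its terminal exon and at 46.2 and 29 in the others (0.50). Tgfbr3 had the largest relative difference (0.65) and Il4ra (0.23) and Ifnar1 (0.24) the smallest. The 7 cytoskeleton and motility genes had a median of 0.40, Tns1 included, with 6 above 0. Cep350, a centrosome gene, had 48.2 and 47.2 against 28 and 17.1 (0.68), and Akap13, the gene of a kinase-anchoring protein, 165 and 128 against 90.2 and 46.5 (0.59). Rock2 (0.17) was the lowest of these 6. For Tns1, which encodes the focal adhesion protein tensin 1, the chosen transcript was listed at 0 in both parts in the library labelled KO, so that its value of -0.33 rests on the levels in the library labelled WT and the added 0.1. Summed over both transcripts, Tns1 stood at 26.3 and 20 in the terminal exon and at 20.9 and 11.8 in the others, a relative difference of 0.43.

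Genes of the microRNA pathway and mRNA decay had a median of 0.32 over 16 members, with 15 above 0 and none past 1. Cpeb4, a cytoplasmic polyadenylation factor gene, was the highest, at 11.5 and 12.9 in its terminal exon and 9.63 and 5.52 in the others (0.95, 0.64 to 1.29), and 0.57 in the sum over its transcripts. Rc3h1, which encodes the RNA-binding protein roquin-1, had 39.9 and 35.6 against 49.8 and 27.2 (0.70). Ago3, an Argonaute gene, was lower in both parts alike, with 11.7 and 6.45 against 12.1 and 6.60 (0.01), and the decapping enzyme gene Dcp2 stood at 26.6 and 22.6 against 27.7 and 23.5 (0.00). Splicing factors and nuclear speckle genes, the class to which Nsrp1 belongs, had a median of 0.28 over 11 members, with 9 above 0 and none past 1 in size. Celf2, a splicing regulator gene of T cells, was the lowest, at 8.29 and 3.90 in its terminal exon and 99.5 and 71.5 in the others (-0.59, -0.87 to -0.36), or -0.30 in the sum over its transcripts. Mbnl1, another splicing regulator gene, had 250 and 304 against 223 and 201 (0.43), and Mbnl3 0.54. Hnrnpr had -0.03 in the chosen transcript and 0.15 in the sum over its 4 transcripts. Ubiquitin ligases and deubiquitinases had a median of 0.35 over 16 members, with 14 above 0 and 1, Znrf1, at -1 or less. Usp9x had 12.8 and 12.7 against 64.1 and 46.8 (0.44), and Mdm4, which encodes an inhibitor of p53, 4.69 and 2.68 against 53.1 and 35.0 (-0.18).

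**Figure D5:**
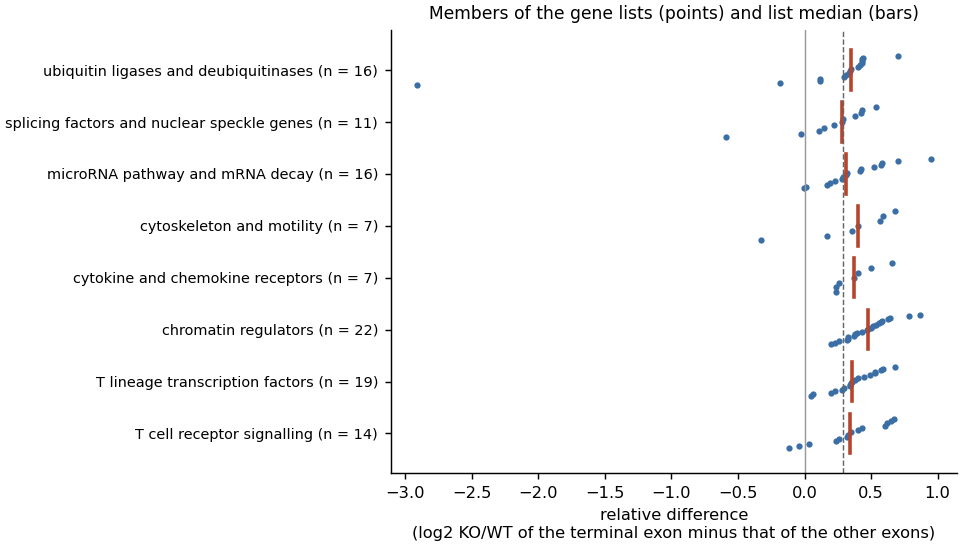
Relative difference of each measured member (points) of 8 gene lists with 5 or more members, and the median of each list (red bars); the dashed line is the median of all measured members, 0.29. List medians run from 0.28 for splicing factors to 0.47 for chromatin regulators, and Znrf1, at -2.92, is the single point past 1 in size.

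The genes that make 3' ends were looked at by their own levels. Of 35 genes that encode cleavage and polyadenylation factors, their regulators and poly(A)-binding proteins, 34 were measured, and none differed by 2-fold in either direction, against a background of 0.657% higher and 1.37% lower among 12029 genes. Of the 34, 24 were below 0 (background 61.5% of genes), with a median log2(KO/WT) of -0.04 against -0.07 over all genes, with 1 TPM added to each level. The highest were Ssu72, a phosphatase gene of the CPSF complex, at 106 and 124 TPM (0.23), Ppp1ca, at 801 and 882 TPM (0.14), and Cstf2t, at 58.4 and 62.9 TPM (0.11). Hnrnpc, with 496 and 364 TPM (-0.45), Cdk12, a kinase gene of elongating polymerase, with 43.3 and 32.1 TPM (-0.42), and Cpsf1, the largest CPSF subunit gene, with 109 and 85.9 TPM (-0.33), were the lowest. Among these genes Cpsf6, Elavl1 and Cdk12 have long terminal exons themselves. Cpsf6 stood at 42.7 and 44.8 TPM-equivalents in its terminal exon and at 102 and 99.8 in the others (0.10), and Elavl1, which encodes the RNA-stabilising protein HuR, 44.6 and 48.9 against 108 and 98.6 (0.27).

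Sequence features were set beside the differences as descriptions. The relative difference had a median of 0.28, 0.28 and 0.29 in the members of lowest, middle and highest A and T content. Members with no AATAAA before the last 50 bases had a median of 0.29 (n = 142), and those with 3 or more 0.29 (n = 338). Members with AATAAA or ATTAAA in the last 50 bases had a median of 0.30 (n = 689), and those with neither 0.20 (n = 134). The latter also had shorter other exons, with a median of 1192 bases against 1487.

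MicroRNA seed matches were counted because microRNAs mostly bind in 3' untranslated regions. The mature sequence of miR-181a-5p, a microRNA abundant in DP thymocytes that tunes T cell receptor sensitivity, is given with that of miR-17-5p, which promotes lymphocyte survival, from RefSeq (GRCm38.p6), with the seed (bases 2 to 8) in capitals.
miR-181a-5p: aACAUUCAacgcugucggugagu
miR-17-5p: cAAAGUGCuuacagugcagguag
The match to the miR-181a-5p seed, TGAATGT on the transcript's strand, was present in 44.1% of the 945 long exons and 13.2% of the shorter ones, and at 0.180 and 0.157 matches per kilobase. The match to miR-17-5p, GCACTTT, was present in 36.5% and 10.2%, at 0.105 and 0.1 per kilobase. Terminal exons with a miR-181a-5p match had a median log2 difference of -0.12 (n = 366) and those without of -0.13 (n = 457). With and without a miR-17-5p match the values were -0.14 and -0.11. For 3 further microRNAs they were -0.16 and -0.11 (let-7g-5p), -0.15 and -0.12 (miR-142a-3p) and -0.14 and -0.12 (miR-92a-3p). For each microRNA the exons with a match were also longer, with medians of 4232 against 3773 bases for miR-181a-5p and 4264 against 3815 for miR-17-5p.

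Xist, the long non-coding RNA that coats the inactive X chromosome, missed the rule of size, narrowly in the chosen transcript and at 0.76 in the sum over its 2 transcripts. Its terminal exon (7664 bases, chromosome X, 103460373 to 103468036, minus strand) stood at 257 and 114 TPM-equivalents and its other exons at 135 and 30.5, a relative difference of 0.98 (0.92 to 1.05). The labels do not give the sex of the mice, which here cannot be told apart from the genotype. Outside the members called, Ptp4a1, a phosphatase gene with 1 annotated transcript, was lower in both parts, at 36.0 and 15.5 in its terminal exon and 70.1 and 20.7 in the others (0.54). Fosl2, a gene of the AP-1 family with 1 annotated transcript, was lower likewise, with 8.35 and 3.36 against 14.1 and 3.68 (0.62).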

How the data were processed

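Libraries were made with a TruSeq RNA kit from 1 ug of total RNA, per the labels' protocols. HISAT2 and the build mm10 (GRCm38) are named in the submitters' processing notes. StringTie 1.3.3b estimated RefSeq transcripts with no assembly of new ones, per the file headers. The deposited tables give TPM, scaled by the authors to a sum of 1000000 per library, and coverage per exon. In the library labelled WT, 28.03% of low transcripts had coverage near a multiple of 202 bases (2 mates of 101). In the library labelled KO the share was 28.34%, and by chance it would be 2.48% in each. Most low transcripts thus did not lie near such a multiple. Dividing the coverage in bases by 202 therefore gave only approximate numbers of read pairs, on which the minimum and the counting intervals rest. Ratio intervals are Clopper-Pearson and those of relative differences exact conditional odds ratios. PCR copies are not independent molecules.

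The members and the 9 gene lists were chosen with earlier results of these data known. Named genes were the 10 highest and 10 lowest relative differences, the 6 longest, the 6 with the highest terminal level, 3 on either side of 3000 bases, and the 2 highest and 2 lowest of each list (3 for levels of 3' end genes). Predicted genes and clones were not named. A few genes that this rule picks are not reported here. Mrps25, Usp31, Xist, Ptp4a1, Fosl2, the genes that share words with a member and the sequences shown were picked after their values were seen. The calculation was tested on read pairs simulated for the terminal and the other exons, with equal depth in both libraries. The simulation held no division of reads between transcripts and no decline along the transcript, so it cannot speak to the effect of either on the calls. Versions were Python 3.11.15, numpy 2.4.6, scipy 1.17.1, pandas 2.3.3 and matplotlib 3.10.9.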

Additional observations from a re-analysis of the deposited data

How the results depend on the processing

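The counts of members at a relative difference of 1 or more (18) and -1 or less (9), and of terminal exons themselves past 1 (41), moved as follows. Without a minimum on read pairs the first 2 were 36 and 15, and with at least 500 read pairs the first and last were 10 and 24. With terminal exons of 2000 bases or more the 3 counts were 29, 18 and 78, and with 5000 or more 6, 1 and 9. At 20 TPM or more the first 2 were 8 and 5. In genes with 1 annotated transcript the 3 counts were 4, 0 and 5, and without overlap with another gene as well, a setting chosen after seeing the data, 2, 0 and 1. Summed over all transcripts the first was 11 and the last 21. Fewer exons enter under the stricter settings; otherwise the cause was not tested. The median relative difference (0.29) was 0.30 with at least 500 read pairs, 0.26 at 2000 bases or more and 0.34 at 5000 or more. The median ratio of terminal to other exons in the library labelled WT (-0.14) was -0.19 with the median over other exons. For terminal exons of 500 to under 1000 bases, the median relative difference of 0.16 was 0.14 in genes with 1 transcript. The median terminal difference of the members (-0.11) changed sign, to 0.02, when the libraries were scaled to the median ratio of the other exons. Summed over transcripts, the relative differences of Tns1, Hnrnpr and Pik3r1 changed sign as well (0.43, 0.15 and 0.04). None of the other relative differences named here changed sign in the sum, and no median relative difference did. Differences of single terminal exons were less stable. Those of Brd3, Cpeb4 and Zzz3 were higher in the library labelled KO in the chosen transcript and lower in the sum. Hnrnpr went the other way. In Ets1, Ccr9 and Rag1 the terminal difference was below 0 but smaller in size than the scaling, under which it turns positive. In all, 39 values, counts within 1.5 times included, did not move. No paired analysis was possible because each genotype has 1 library, and no replicate could be left out. Depth limits the members with few read pairs, with counting intervals of 0.92 to 1.05 in Xist and of 0.84 to 2.10 in Mtif3.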
